A study of Mus musculus with 18 samples.

Results

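Matricellular proteins were followed through the osteogenic induction of O9-1 cells, a multipotent mouse neural crest line that was isolated from the head of E8.5 embryos. The 10 genes, taken by symbol from the 55335 gene identifiers of the count files, were Postn, Tgfbi, Sparc, Sparcl1, Smoc1, Smoc2, Thbs1, Thbs2, Spon1 and Tnc. Polyadenylated RNA was sequenced from 18 libraries, 3 in each of 3 groups at d2.5 and d5 of culture in osteoblast differentiation medium. Cells of the Ctrl+vehicle group received a scrambled siRNA (siCtrl) and no FGF2, those of the Ctrl+FGF2 group received siCtrl and FGF2, and those of the Y/T dKD+FGF2 group received siRNA pools against Yap and Taz together with FGF2. All cells carried the label wildtype and all had been transfected with an siRNA. No group had the knockdown without FGF2, so every knockdown comparison was made in the presence of the ligand. The labels give each day its own batch, so a difference between d5 and d2.5 cannot be told apart from a difference between batches. They do not say that replicates were separate cultures, so p-values measure the spread between these libraries, which may be technical.

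Matricellular proteins are secreted into the extracellular matrix, where they act less as scaffold than as adaptors: they bind collagens, growth factors and cell surface receptors such as integrins, and they tune adhesion and signalling. Several of them accompany bone formation. Sparc, also called osteonectin, binds collagen and mineral and is among the abundant non-collagenous proteins of bone, and Postn is a product of the periosteum and of collagen-rich connective tissue. Thrombospondins bind matrix and cell surface receptors, and thrombospondin 1 can activate latent TGF-beta. Tenascin C, the product of Tnc, is an anti-adhesive protein that appears in embryonic mesenchyme, at sites of condensation and in healing wounds.

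The sequences upstream of 4 members are shown, picked by level or change among the members with a RefSeq promoter, which Thbs1 lacked. Tnc moved farthest with FGF2, Postn was the most abundant at d5, and Thbs2 and Tgfbi moved in opposite directions with FGF2 at d2.5 and between days in Ctrl+vehicle. The part of these sequences in the changes was not tested. Each stretch is 150 bases read 5′ to 3′ on the strand of the gene in GRCm38.p6, from RefSeq. It ends on the base before the annotated start of transcription, except for Tgfbi, where it ends 64 bases before the start so as to stay clear of an annotated exon. Capitals mark the letters TATATAA.
Tnc, chr4:64047016-64047165, reverse strand: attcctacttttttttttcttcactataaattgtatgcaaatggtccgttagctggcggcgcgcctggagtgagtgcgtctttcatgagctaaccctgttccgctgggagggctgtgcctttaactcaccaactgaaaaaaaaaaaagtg
Postn, chr3:54360957-54361106, forward strand: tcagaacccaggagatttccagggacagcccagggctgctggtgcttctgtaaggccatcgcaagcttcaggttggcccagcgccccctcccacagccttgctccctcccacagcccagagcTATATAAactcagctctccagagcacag
Thbs2, chr17:14694263-14694412, reverse strand: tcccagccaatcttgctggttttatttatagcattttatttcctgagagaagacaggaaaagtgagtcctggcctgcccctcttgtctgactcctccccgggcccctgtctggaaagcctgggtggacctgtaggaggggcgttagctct
Tgfbi, chr13:56609373-56609522, forward strand: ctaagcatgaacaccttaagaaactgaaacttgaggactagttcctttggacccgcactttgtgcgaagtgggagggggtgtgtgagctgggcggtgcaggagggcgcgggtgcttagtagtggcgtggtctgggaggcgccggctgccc
The RefSeq promoter table matched 5 of the 10 members (Postn, Sparc, Tnc, Thbs2 and Tgfbi) and not Sparcl1, Thbs1, Spon1, Smoc1 or Smoc2. In the 250 bases before each annotated start of these 5 genes, 7 starts in all, both strands were searched for GGAATG, a core of the sites bound by the TEAD partners of Yap and Taz, for TGANTCA, the AP-1 site, and for TGTGGT, a core of the RUNX site. None of the 7 windows held any of these letters, which are present in the same window of 12.6%, 6.75% and 14% of the 32851 promoters of the table, respectively. At these shares, 7 windows, of which those of Tnc overlap, are too few to tell the members from other genes. Bases farther from the starts were not searched. The string TATATAA, which resembles the core promoter element that binds the TATA-binding protein, was added to the search after the sequences had been seen. It is held by 3.04% of promoters and was present 28 bases before the Postn start and 29 bases before the more downstream of the annotated Tnc starts (position 64046936), which lies outside the printed stretch. No match overlapped another.

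Each library held 10377151 to 14698525 counts assigned to genes on the strand of the kit (median 12330911), and levels are given as CPM, gene counts scaled to library size with TMM factors over the 18 libraries. The siRNA targets were lower in all knockdown libraries. At d2.5, Yap1 stood at 132, 126 and 129 CPM in Ctrl+FGF2 and at 65.3, 65.4 and 69.6 CPM in Y/T dKD+FGF2, and the message of Taz, Wwtr1, at 221, 219 and 225 against 142, 130.0 and 135 CPM. At d5 the values were 159, 147 and 152 against 74.0, 67.2 and 70.2 CPM for Yap1 and 213, 219 and 215 against 122, 128 and 124 CPM for Wwtr1. Wwtr1 was itself higher with FGF2 at d2.5 (log2 fold change 0.65, SE 0.035, adjusted p = 1.30e-16), and Yap1 was lower (log2 fold change -0.23, SE 0.037, adjusted p = 3.35e-06). The level of Wwtr1 in the knockdown at d2.5 was not called different from Ctrl+vehicle (95% interval of the log2 fold change -0.14 to 0.0082, adjusted p = 0.122). Of the neural crest markers, Sox10 and Foxd3 were at 0 in every group while the other 6 of 8 were tested, and 6 to 8 of the 8 osteoblast markers were present at 1 CPM or more in every group.

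FGF2 lowered most of the matricellular messages at d2.5. Of the 8 members with enough counts to test, 5 fell (Tnc, Tgfbi, Thbs1, Postn and Sparc), 2 rose (Thbs2 and Sparcl1) and Smoc2 did not pass the test. Their median log2 fold change was -1.71 and their median absolute change 1.71, beside 0.35 over the 13677 genes tested, of which 67.6% were called at an adjusted p under 0.05, 33.5% higher and 34.1% lower. Counts of members called are read against these shares. Spon1 and Smoc1 were not tested in any comparison, because the filter on low counts removed them.

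At d5 the same numbers of members were called, 2 higher and 5 lower, but the membership and the sizes differed: Sparc, Tnc, Postn, Tgfbi and Thbs2 were lower with FGF2, and Thbs1 and Sparcl1 higher. The median absolute change was 0.65 on the log2 scale beside 0.22 over the 13304 genes tested, of which 47.2% were called, 23.5% higher and 23.7% lower. The difference of the FGF2 effect between days, tested as a contrast in one fit of all 18 libraries, was positive for 6 members (Tnc, Thbs1, Tgfbi, Postn, Sparcl1 and Sparc), negative for Thbs2 and not called for Smoc2. Among the 14198 genes of that fit, 60.9% were called, 31.8% with a positive and 29.1% with a negative difference.

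Fewer members were called with the knockdown of Yap and Taz under FGF2 than with FGF2 itself, as were fewer of all genes. The members' median absolute change was also smaller on both days. At d5, however, Tgfbi, Thbs1 and Smoc2 changed more with the knockdown than with FGF2. At d2.5, Thbs2 and Sparcl1 were higher, Thbs1, Tgfbi and Postn lower, and Sparc, Tnc and Smoc2 not called, in a comparison that called 24.5% of all genes, 10.8% higher and 13.6% lower. The median absolute change of the members was 0.22 on the log2 scale, beside 0.13 over all genes. At d5, Tgfbi, Smoc2 and Sparc were higher, Thbs1 was lower, and 4 members (Postn, Sparcl1, Tnc and Thbs2) were not called, against 31.7% of all genes called, 15.6% higher and 16.1% lower. The members' median absolute change was 0.24 at d5, beside 0.15 over all genes. The knockdown effect itself differed between days for 6 members, more positive at d5 for Tgfbi, Sparc and Smoc2 and more negative for Thbs1, Sparcl1 and Thbs2, where 20.9% of all genes were called, 11.6% positive and 9.35% negative. Both the FGF2 and the knockdown comparison of a day use the same 3 Ctrl+FGF2 libraries, so their values for a member are not independent.

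Set against Ctrl+vehicle, the knockdown cells with FGF2 were lower in 5 and higher in 2 of the tested members at d2.5 (median log2 fold change -1.80), where 69.8% of all genes were called, 34.1% higher and 35.7% lower. At d5 they were lower in 5 and higher in 3, which makes all 8 tested members (median -0.44), where 41.8% of all genes were, 20.7% higher and 21.1% lower. The plot of levels by library shows each of these groups, and the plot of fold changes shows how far the FGF2 effect exceeded the knockdown effect for most members at d2.5.

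**Figure D1:**
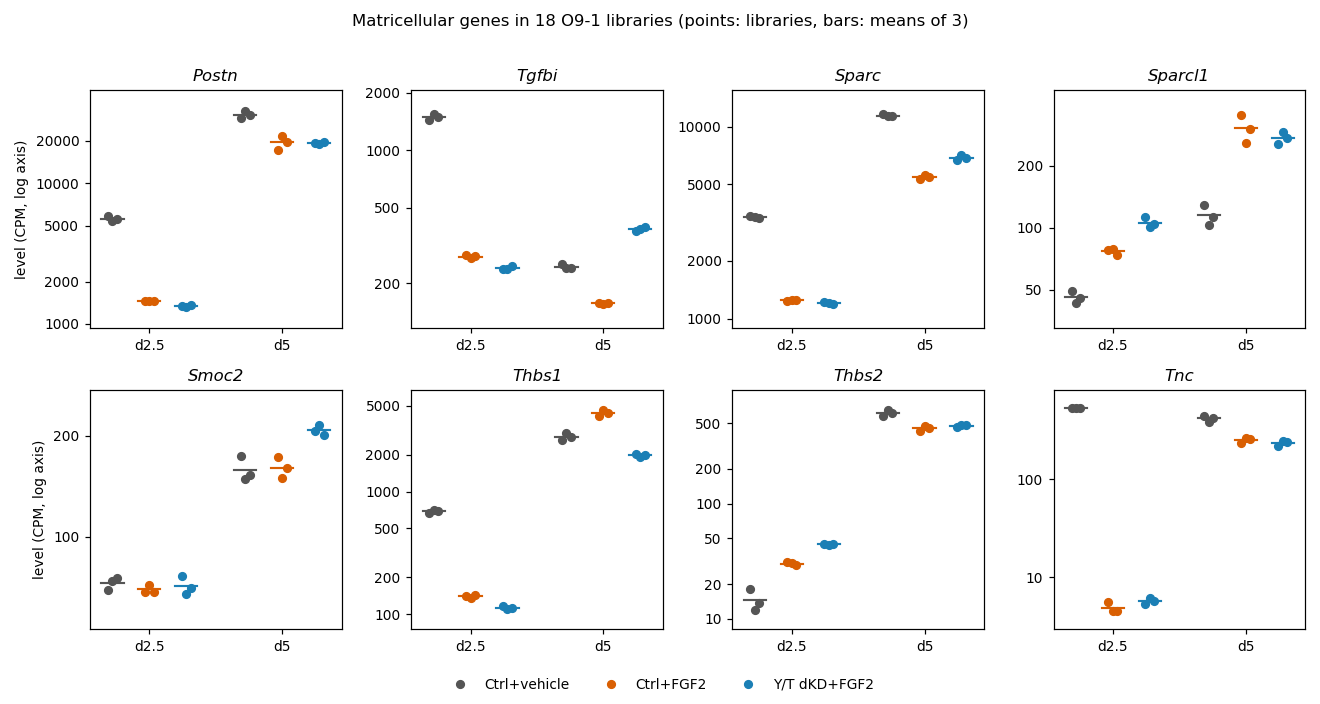
Level of each of the 8 detected members in every library, in CPM on a log axis whose range differs between panels, at d2.5 and d5. Points are libraries and bars the means of 3; at d2.5 the Ctrl+vehicle points of Tnc lie about 2 decades above those of the FGF2-treated groups, and those of Thbs2 lie below them.

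**Figure D2:**
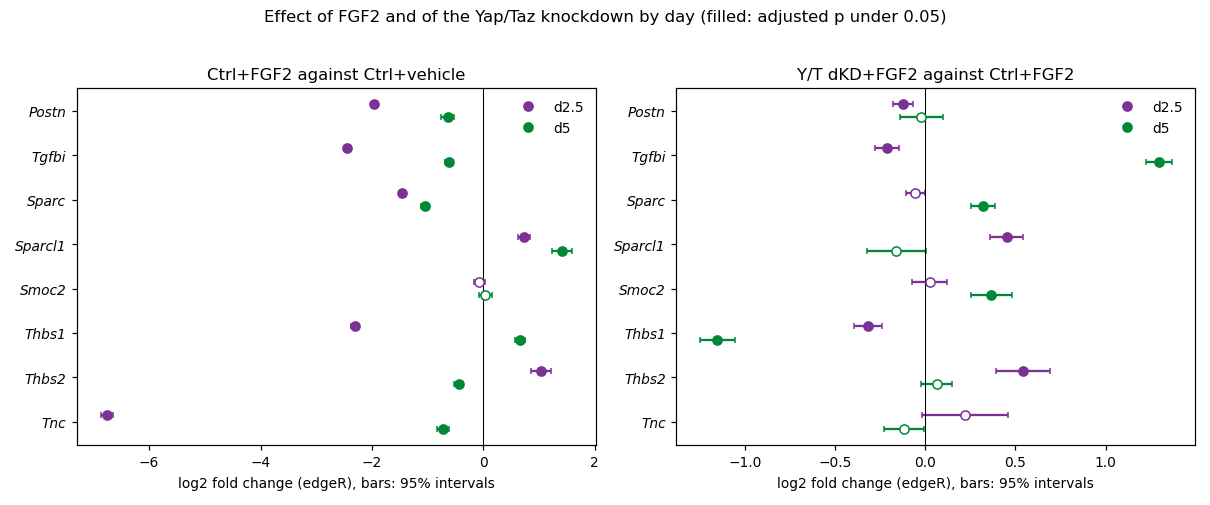
log2 fold change of each tested member with FGF2 (left) and with the Yap/Taz knockdown under FGF2 (right), at d2.5 and d5, with 95% intervals and filled points for an adjusted p under 0.05. The horizontal scales differ: the FGF2 values run from -6.76 to 1.42 and the knockdown values from -1.15 to 1.29.

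From d2.5 to d5 most matricellular messages rose. In Ctrl+vehicle, 6 members were higher at d5 and 2, Tgfbi and Tnc, were lower, where 66.4% of all genes were called, 33.1% higher and 33.2% lower. With FGF2, 7 members were higher at d5 and only Tgfbi was lower, against 80.0% of all genes called, 41.2% higher and 38.8% lower. In the knockdown with FGF2, all 8 tested members were higher at d5, against 78.4% of all genes called, 40.3% higher and 38.1% lower. The members' median absolute log2 fold changes between days were 1.89, 2.95 and 2.96 in the 3 groups, beside 0.37, 0.64 and 0.61 over all genes.

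Levels of different genes are compared per length, as CPM divided by the kilobases of annotated exon (RPKM). At d2.5 Sparc was the highest member in each group, followed by Postn and Tgfbi. In Ctrl+vehicle at d2.5 the order went on with Thbs1, Tnc, Sparcl1, Smoc2 and Thbs2, from 896 ± 9.87 RPKM for Sparc to 2.09 ± 0.456 RPKM for Thbs2 (SD, n = 3). With FGF2 at d2.5, Tnc dropped to the last place among the 8, at 0.633 ± 0.0795 RPKM, and Sparcl1 stood above Thbs1. At d5 Postn stood above Sparc in each group, at 3537 ± 215 against 3019 ± 38.6 RPKM in Ctrl+vehicle, and Thbs1 came next. Postn alone took 2.76% of all gene counts in Ctrl+vehicle at d5 and 0.59% at d2.5. Neighbours in these orders did not overlap in their 3 libraries, apart from Tnc and Smoc2 in the knockdown at d5 (30.0 ± 1.87 and 29.9 ± 0.976 RPKM) and apart from Smoc1 and Spon1, which held the last 2 places.

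**Figure D3:**
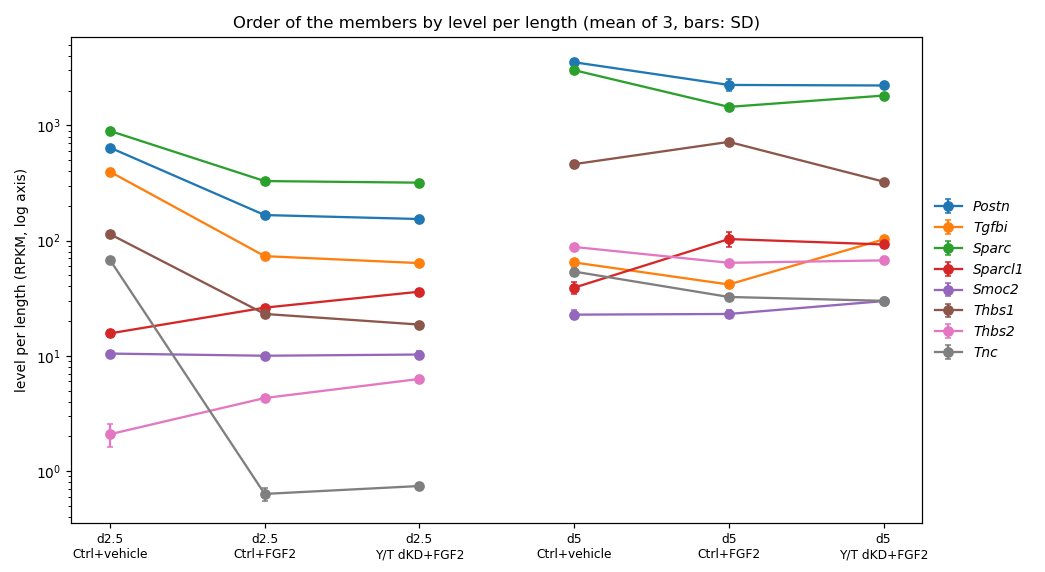
Level per length of the 8 detected members in each group, in RPKM on a log axis, as the mean of 3 libraries with SD. Sparc (green) is the highest line at d2.5 and Postn (blue) at d5, and the line of Tnc (grey) falls from 68.1 to 0.633 RPKM between Ctrl+vehicle and Ctrl+FGF2 at d2.5.

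Tnc (ENSMUSG00000028364.15, chr4:63959785-64047015, reverse strand), which encodes the hexameric matrix protein tenascin C, showed the widest range among the 8 detected members. At d2.5 it stood at 529, 529.7 and 529 CPM in Ctrl+vehicle. With FGF2 it stood at 5.63, 4.59 and 4.55 CPM, from 63 to 80 counts a library, and in the knockdown with FGF2 at 5.38, 6.14 and 5.76 CPM. The groups with FGF2 overlapped one another and lay far below Ctrl+vehicle. With FGF2, Tnc fell by 6.76 on the log2 scale (108-fold lower, SE 0.057, adjusted p = 3.10e-37), and the knockdown did not pass the test (95% interval -0.018 to 0.46, adjusted p = 0.246). At d5 the gap was much smaller: the libraries held 447, 384 and 426 CPM in Ctrl+vehicle, 237, 263 and 256 CPM with FGF2 and 217, 244 and 239.8 CPM in the knockdown. FGF2 then lowered Tnc by 0.72 on the log2 scale (SE 0.056, adjusted p = 1.46e-08), and the difference between the FGF2 effects of the days was 6.02 (SE 0.097, adjusted p = 3.22e-28). The knockdown effect at d5 was -0.12 (95% interval -0.23 to -0.0064, unadjusted p = 0.0536, adjusted p = 0.130). That value passed the threshold when either Ctrl+vehicle replicate 2 or Ctrl+FGF2 replicate 1 of d5 was left out (log2 fold change -0.12 and -0.16). Between days, Tnc fell by 0.34 in Ctrl+vehicle and rose by 5.68 with FGF2 and 5.34 in the knockdown on the log2 scale.

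The summed levels of several marker lists were also lower with FGF2 at d2.5. Of all genes, 34.1% were called lower and 33.5% higher in that comparison. The adipocyte sum went the other way, at 43.9 to 45.56 CPM in Ctrl+vehicle and 49.23 to 54.95 CPM in Ctrl+FGF2. Of the 6 neural crest markers tested, 2 were lower and 4 not called. The 8 osteoblast markers summed to 17170 to 17510 CPM in the Ctrl+vehicle libraries and to 9599 to 9846 CPM in Ctrl+FGF2, with 5 of the 7 tested lower and 2 higher. Col1a1 and Spp1 made up most of these sums and moved apart. The mean of Col1a1 was 12636 CPM in Ctrl+vehicle and 2203 CPM with FGF2, and that of Spp1 was 4001 and 6915 CPM. The 6 chondrocyte markers summed to 703.7 to 923.6 CPM in Ctrl+vehicle and to 116.7 to 129 CPM in Ctrl+FGF2, with all 4 that were tested lower and Snorc at 0 in both groups. The 4 smooth muscle markers summed to 167.3 to 230.7 CPM and to 22.61 to 23.66 CPM, with both of those tested lower, and the 4 neuron markers, with Elavl3 at 0, to 63.3 to 68.86 CPM and 19.05 to 22.75 CPM, with 2 of the 3 tested lower and 1 higher. The smooth muscle sum was 2032 to 3070 CPM at d5 over all groups. The part of such cells in the changes of Tnc and of the other members was not tested, and in bulk RNA fewer cells of a type cannot be told apart from less RNA in each cell. Endothelial markers summed to under 4 CPM in every library, with Cdh5 and Tie1 at 0, and leukocyte markers to at most 5.5 CPM.

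Postn (ENSMUSG00000027750.16, chr3:54361109-54391037, forward strand) encodes periostin, a fasciclin-domain protein that binds collagen and integrins. At d2.5 its level was 5836, 5360.1 and 5565 CPM in Ctrl+vehicle, 1443, 1449 and 1462 CPM with FGF2 and 1344, 1314 and 1365 CPM in the knockdown. The 3 groups did not overlap, and the gap between the groups with FGF2 was small. FGF2 lowered Postn by 1.96 on the log2 scale (3.88-fold, SE 0.030, adjusted p = 7.32e-31), and the knockdown by a further 0.12 (SE 0.029, adjusted p = 0.00217), a call that was lost when all 18 libraries were fitted together (log2 fold change -0.11, adjusted p = 0.112). At d5 it had reached 29121, 32808 and 30410.2 CPM in Ctrl+vehicle, 17249, 21828 and 19592 CPM with FGF2 and 19421, 18913 and 19685 CPM in the knockdown. All 3 knockdown libraries lay within the range of the FGF2 libraries, which had the widest spread of any Postn group. FGF2 lowered Postn at d5 by 0.64 (SE 0.062, adjusted p = 1.81e-07), less than at d2.5 by a difference of 1.29 (SE 0.071, adjusted p = 1.38e-15). The knockdown effect at d5 had a 95% interval of -0.14 to 0.098 (adjusted p = 0.824). The difference between the knockdown effects of the days was 0.098 and was not called (adjusted p = 0.372), but it reached 0.18 with an adjusted p of 0.0255 when Ctrl+FGF2 replicate 2 of d5 was left out. From d2.5 to d5 Postn rose 5.51-fold in Ctrl+vehicle, 13.5-fold with FGF2 and 14.4-fold in the knockdown.

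Tgfbi (ENSMUSG00000035493.10, chr13:56609523-56639562, forward strand), the other fasciclin-domain gene, encodes a secreted adhesion protein that is named for its induction by TGF-beta. Unlike Postn, it was lower at d5 than at d2.5 in both siCtrl groups. At d2.5 it stood at 1449, 1547 and 1490.4 CPM in Ctrl+vehicle, 282, 270.4 and 278 CPM with FGF2 and 238, 238 and 245 CPM in the knockdown, with no overlap between groups. FGF2 lowered it by 2.45 on the log2 scale (5.45-fold, SE 0.033, adjusted p = 2.94e-32), and the knockdown by a further 0.21 (SE 0.034, adjusted p = 2.49e-05). At d5 the levels were 251, 241 and 240.0 CPM in Ctrl+vehicle, 157, 156 and 157 CPM with FGF2 and 379, 386 and 395 CPM in the knockdown. The knockdown libraries were now the highest of the day and the FGF2 libraries the lowest, again without overlap. The knockdown raised Tgfbi 2.45-fold over Ctrl+FGF2 (log2 1.29, SE 0.036, adjusted p = 9.69e-14) and 1.59-fold over Ctrl+vehicle (log2 0.67, SE 0.035, adjusted p = 9.77e-11). The knockdown effect thus turned from lower to higher between days, with a difference of 1.50 (SE 0.049, adjusted p = 4.04e-19), the largest of the 8 members, and the FGF2 effect weakened by 1.80 (SE 0.049, adjusted p = 9.21e-23). Tgfbi fell 6.13-fold from d2.5 to d5 in Ctrl+vehicle and 1.76-fold with FGF2, and rose 1.61-fold in the knockdown.

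Thbs1 (ENSMUSG00000040152.8, chr2:118111876-118127133, forward strand) encodes thrombospondin 1, which binds the receptors Cd47 and Cd36 and latent TGF-beta, and its response to FGF2 changed sign between days. At d2.5 it stood at 666, 711 and 698 CPM in Ctrl+vehicle, 142, 135 and 144 CPM with FGF2 and 117, 109.9 and 114 CPM in the knockdown. All 3 groups were apart, in that order. FGF2 lowered it by 2.31 on the log2 scale (4.97-fold, SE 0.036, adjusted p = 9.19e-31), and the knockdown by a further 0.32 (SE 0.039, adjusted p = 5.43e-07). At d5 the libraries held 2602, 3006 and 2797 CPM in Ctrl+vehicle, 4145, 4601 and 4373 CPM with FGF2 and 2033, 1901 and 1993 CPM in the knockdown. The FGF2 libraries were here the highest of the series for Thbs1 and the knockdown libraries the lowest of the day. FGF2 raised Thbs1 1.57-fold (log2 0.65, SE 0.048, adjusted p = 7.53e-09), a difference from the d2.5 effect of 2.94 (SE 0.064, adjusted p = 3.22e-25). The knockdown lowered it 2.22-fold (log2 -1.15, SE 0.049, adjusted p = 1.47e-11), to below Ctrl+vehicle (log2 -0.50, SE 0.049, adjusted p = 2.47e-07). The knockdown effect was larger at d5 than at d2.5, by 0.84 on the log2 scale (SE 0.066, adjusted p = 2.24e-10). Thbs1 was the only member that fell with the knockdown on both days.

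Thbs2 (ENSMUSG00000023885.9, chr17:14665500-14694235, reverse strand) encodes thrombospondin 2, a protein of connective tissue that affects collagen fibril assembly. It was scarce at d2.5, at 18.2, 11.9 and 13.8 CPM in Ctrl+vehicle (178 to 263 counts), 31.1, 30.3 and 29.0 CPM with FGF2 and 44.3, 43.6 and 44.5 CPM in the knockdown. Its order of groups was the reverse of that of Thbs1, without overlap. FGF2 raised Thbs2 2.05-fold (log2 1.03, SE 0.090, adjusted p = 1.15e-11), and the knockdown a further 1.46-fold (log2 0.54, SE 0.075, adjusted p = 3.04e-06). By d5 it had risen 42.3-fold in Ctrl+vehicle, to 581, 656 and 616 CPM, the largest rise between days of any member in that group. The d5 levels were 429, 470.4 and 449.6 CPM with FGF2 and 458, 479.6 and 479 CPM in the knockdown, which overlapped each other and lay below Ctrl+vehicle. FGF2 lowered Thbs2 at d5 by 0.45 on the log2 scale (SE 0.043, adjusted p = 2.24e-07), a change of sign from d2.5 with a difference of -1.50 (SE 0.11, adjusted p = 3.06e-13). The knockdown effect at d5 had a 95% interval of -0.022 to 0.15 (adjusted p = 0.295), and it was lower than that at d2.5 by 0.48 (SE 0.093, adjusted p = 3.39e-04).

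Spon1 (ENSMUSG00000038156.16, chr7:113765998-114043370, forward strand), which encodes the thrombospondin-repeat protein F-spondin, was close to absent. A single count was assigned to it over the 18 libraries, in a knockdown library at d2.5, while 64 counts lay on the other strand. In the 5 groups with no count, a level of up to 0.0699 to 0.0907 CPM over the 3 libraries of a group remains possible at this depth (3 counts, counting error only).

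Sparc (ENSMUSG00000018593.13, chr11:55394500-55423183, reverse strand) encodes osteonectin, a collagen-binding glycoprotein, and varied within groups by at most 3.15% (coefficient of variation). Its d2.5 levels were 3428, 3403 and 3355 CPM in Ctrl+vehicle, 1237, 1247 and 1254 CPM with FGF2 and 1219, 1204 and 1198 CPM in the knockdown. FGF2 lowered it by 1.46 on the log2 scale (2.75-fold, SE 0.027, adjusted p = 1.06e-28), while the knockdown effect was within -0.11 to -0.0029 and did not pass after adjustment (adjusted p = 0.135). At d5 it stood at 11604, 11372 and 11334 CPM in Ctrl+vehicle, 5371, 5604 and 5490.3 CPM with FGF2 and 6679.7, 7110.0 and 6849 CPM in the knockdown. The knockdown libraries lay between the others without overlap. FGF2 lowered Sparc 2.07-fold at d5 (log2 -1.05, SE 0.034, adjusted p = 3.18e-13), and the knockdown raised it 1.25-fold over Ctrl+FGF2 (log2 0.32, SE 0.034, adjusted p = 1.06e-06). Relative to Ctrl+vehicle, Sparc in the knockdown at d5 remained lower by 0.73 on the log2 scale. The d5 and d2.5 effects differed by 0.39 for FGF2 (SE 0.040, adjusted p = 1.16e-09) and by 0.37 for the knockdown (SE 0.040, adjusted p = 5.51e-08).

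Sparcl1 (ENSMUSG00000029309.7, chr5:104079111-104113733, reverse strand), a close relative of Sparc that encodes hevin, ran the other way with FGF2. At d2.5 it stood at 49.0, 43.3 and 45.8 CPM in Ctrl+vehicle, 78.2, 78.7 and 73.9 CPM with FGF2 and 112, 101 and 104 CPM in the knockdown, 3 groups in rising order with no overlap. FGF2 raised it 1.66-fold (log2 0.73, SE 0.052, adjusted p = 8.94e-14) and the knockdown a further 1.37-fold (log2 0.45, SE 0.047, adjusted p = 2.26e-08). At d5 the libraries held 128, 102 and 113 CPM in Ctrl+vehicle, 351, 259 and 299.9 CPM with FGF2 and 255, 291 and 271 CPM in the knockdown. Both groups with FGF2 were above Ctrl+vehicle and overlapped each other. The FGF2 effect at d5 was 2.67-fold (log2 1.42, SE 0.090, adjusted p = 1.10e-09), larger than at d2.5 by 0.66 on the log2 scale (SE 0.12, adjusted p = 1.89e-05). The knockdown effect at d5 was -0.16 (95% interval -0.33 to 0.0063, adjusted p = 0.169), and it was lower than that at d2.5 by 0.61 (SE 0.11, adjusted p = 1.26e-04). Without Ctrl+FGF2 replicate 2 of d5, the knockdown effect at d5 was -0.26 with an adjusted p of 0.00834. Sparcl1 was the only member that FGF2 raised on both days.

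The SMOC genes encode calcium-binding proteins related to Sparc. Smoc2 (ENSMUSG00000023886.10, chr17:14279506-14404790, forward strand) did not pass the FGF2 test on either day. It stood at 69.2, 73.8 and 75.3 CPM in Ctrl+vehicle, 68.5, 71.9 and 68.6 CPM with FGF2 and 76.4, 67.4 and 70.4 CPM in the knockdown at d2.5, and all 3 groups overlapped. The 95% intervals of its FGF2 effect were -0.17 to 0.020 at d2.5 and -0.083 to 0.15 at d5 (adjusted p = 0.178 and 0.673). Leaving out Ctrl+vehicle replicate 1 of d2.5 brought the d2.5 effect to -0.11 with an adjusted p of 0.0478. At d5 the levels were 174, 148 and 153 CPM in Ctrl+vehicle, 173, 149 and 159.8 CPM with FGF2 and 207, 215 and 201 CPM in the knockdown. The knockdown libraries were above all others, by 1.29-fold over Ctrl+FGF2 (log2 0.37, SE 0.058, adjusted p = 9.38e-05) and 1.32-fold over Ctrl+vehicle. This effect was larger at d5 than at d2.5 by 0.34 (SE 0.081, adjusted p = 0.00279). Smoc2 rose between days in each group, 2.17-fold in Ctrl+vehicle, 2.30-fold with FGF2 and 2.91-fold in the knockdown, and had the narrowest range of group means, 2.98-fold. Smoc1 (ENSMUSG00000021136.13, chr12:81026808-81186414, forward strand) had 18 counts over the 18 libraries and at most 5 in any one. Of these, 9 were in Ctrl+vehicle at d2.5, 3 in Ctrl+FGF2 and none in the knockdown of that day, numbers too low for the filter of the test, and 0 of 3 libraries' counts allow a level of up to 0.0798 CPM in the knockdown at d2.5. Without the filter, the knockdown against Ctrl+vehicle at d2.5 passed for Smoc1 (adjusted p = 0.013) on these 9 counts against none.

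The genomic spans above are those of GENCODE M21 on GRCm38 (mm10). Sparcl1, Tnc, Thbs1 and Smoc2 are overlapped by annotated genes on the opposite strand, and the strand used here held 99.5% to 99.8% of their stranded counts. Within groups, the coefficient of variation of the 8 detected members ranged from 0.0971% (Tnc, Ctrl+vehicle at d2.5) to 21.9% (Thbs2 in the same group). The highest group mean exceeded the lowest by 107.5-fold for Tnc, 42.3-fold for Thbs2, 38.5-fold for Thbs1, 23.0-fold for Postn, 9.52-fold for Tgfbi, 9.48-fold for Sparc and 6.59-fold for Sparcl1.

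Across the 18 libraries, Postn, Sparc, Thbs1 and Tnc followed one another closely in log2 CPM. Pearson's r was 0.99 between Postn and Sparc, 0.98 between Postn and Thbs1, 0.94 between Sparc and Thbs1, and 0.87 to 0.88 between Tnc and each of the other 3. Thbs2 and Smoc2 were close to each other (0.94) and Sparcl1 to both of them (0.83). Smoc2 was also close to Postn (0.89), Thbs1 (0.86) and Sparc (0.85), and Thbs2 to Postn (0.83). Tgfbi stood apart, with r between -0.65 (Sparcl1) and 0.35 (Tnc) to the other members. These values describe 6 groups of 3 libraries that share day and treatment, and carry no test. Among the 9617 genes whose log2 CPM averaged 3 or more, the gene whose pattern was most like that of a member was Col11a1 for Postn (r = 0.995), Gramd3 for Sparc (0.997), Rsu1 for Thbs1 (0.997), Dclk1 for Tnc (0.994), Ccdc25 for Thbs2 (0.993), Laptm4b for Smoc2 (0.988), Arrdc3 for Sparcl1 (0.981) and Sytl2 for Tgfbi (0.971).

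Another 18 matricellular genes, most of them of the tenascin, thrombospondin, testican, CCN and osteopontin families and with Spon2 and Fstl1 among them, give the setting of the 10 members. At d2.5, FGF2 lowered 7 and raised 2 of the 12 that were tested, where 34.1% of all genes were called lower and 33.5% higher. The median over the list was -0.45 on the log2 scale. The largest fall was that of Tnn, the gene of tenascin W, a tenascin of bone and periosteum. Tnn stood at 3015, 2935 and 2949.9 CPM in Ctrl+vehicle and at 212, 178 and 199 CPM with FGF2 (15.2-fold lower, SE 0.043, adjusted p = 2.96e-34). As for Tnc, the gap between these groups was much smaller at d5. Tnn then stood at 3174, 2875 and 3036 CPM with FGF2 against 4461, 4040.1 and 4266 CPM in Ctrl+vehicle. The difference between its FGF2 effects of the days was 3.43 (SE 0.070, adjusted p = 1.20e-25). Tnr (log2 -2.58) and Thbs3 (log2 -2.18) were next, and Tnr was scarce, with 156 counts over the Ctrl+vehicle libraries and 26 over those with FGF2. At d5, 6 of 12 were lower and 2 higher with FGF2, where 23.7% of all genes were called lower and 23.5% higher. The largest changes were those of Spock2, a testican, which rose by 1.91 on the log2 scale, Comp, a cartilage thrombospondin (fall by 1.58), and Ccn4 (fall by 1.03). Comp was scarce, at 24, 27 and 19 counts with FGF2 against 36, 101 and 69 counts in Ctrl+vehicle.

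In the knockdown at d2.5, 3 of these 12 genes were higher and 2 lower, none by more than 0.38 on the log2 scale among the called. Of all genes, 10.8% were called higher and 13.6% lower. At d5, 7 were higher and 2 lower, where 15.6% of all genes were called higher and 16.1% lower. Ccn4, a CCN protein of differentiating osteoblasts, rose by 0.96 (SE 0.049, adjusted p = 1.49e-10), from 119.8, 133 and 127 CPM to 246, 252 and 245 CPM, which overlapped the 244, 279.9 and 258 CPM of Ctrl+vehicle. Spock2 fell by 0.83 and Spon2, a secreted relative of Spon1, rose by 0.64 on the log2 scale. From d2.5 to d5, 9 of the 13 tested over all libraries rose and 3 fell in Ctrl+vehicle, 11 rose and 1 fell with FGF2, and 11 rose and 2 fell in the knockdown. Of all genes, 33.1%, 41.2% and 40.3% were called higher in these groups, and 33.2%, 38.8% and 38.1% lower.

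Among 16 receptors of these proteins, 13 were tested within each day. Of the others, Cd36 had 1 count, in Ctrl+vehicle at d2.5, and Ptprz1 had none in any group. FGF2 raised 4 and lowered 9 at d2.5 and raised 3 and lowered 7 at d5, and the knockdown raised 4 and lowered 3 at d2.5 and raised 4 and lowered 4 at d5. Of all genes, 33.5% were called higher and 34.1% lower with FGF2 at d2.5, and 23.5% and 23.7% at d5. For the knockdown the shares were 10.8% higher and 13.6% lower at d2.5, and 15.6% and 16.1% at d5. Their median absolute changes with FGF2, 0.41 and 0.21 on the log2 scale, stood beside 0.35 and 0.22 over all genes. Among the called, the integrin subunits Itga3 and Itgb3 changed most with FGF2 at d2.5 and with the knockdown on both days, and Itga3, Lrp8 (log2 -0.59) and Itga9 (log2 -0.57) with FGF2 at d5. Itga3 rose with FGF2 by 1.42 at d2.5 and 1.36 at d5, and fell with the knockdown by 0.60 and 0.82. Itgb3, a subunit of a receptor for many matricellular proteins, stood at 5.80, 5.81 and 6.26 CPM in Ctrl+vehicle, 1.76, 2.84 and 2.14 CPM with FGF2 and 5.13, 5.99 and 4.19 CPM in the knockdown at d2.5, and rose with the knockdown by 1.18 at d2.5 and 0.77 at d5. Its FGF2 effect was -1.42 at d2.5 and 0.28 at d5 (adjusted p = 2.63e-08 and 0.00941), with a difference of 1.67 (SE 0.22, adjusted p = 1.36e-07). Lrp1, an endocytic receptor for thrombospondins, was lower with FGF2 at d2.5 (log2 -0.90) and lower again with the knockdown of that day (log2 -0.43). At d5 its knockdown effect was 0.39 (adjusted p = 1.07e-05), more positive than at d2.5 by 0.81 (SE 0.069, adjusted p = 1.05e-09).

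The 14 collagens and other matrix partners were all tested. At d2.5, FGF2 lowered 10 and raised 3 (median -0.89 on the log2 scale), where 34.1% of all genes were called lower and 33.5% higher. Col1a1, Col3a1 and Col1a2 fell most (log2 -2.53, -2.45 and -1.60). At d5, FGF2 lowered 12 and raised none, with a median of -0.52, where 23.7% of all genes were called lower and 23.5% higher. The knockdown lowered 6 and raised 2 at d2.5, where 13.6% of all genes were called lower and 10.8% higher. At d5 it raised 10 and lowered 2, where the shares were 15.6% higher and 16.1% lower. Col3a1 rose by 0.70 and Nid1 by 0.63 with the knockdown at d5, while Lox, a lysyl oxidase that crosslinks collagen, stood at 3433, 3819 and 3532 CPM with FGF2 and 1815, 1709 and 1785 CPM in the knockdown and fell by 1.03 (SE 0.040, adjusted p = 5.83e-12). Of the 8 tested members, 3 (Tgfbi, Smoc2 and Sparc) rose with the knockdown at d5, Thbs1 fell and 4 were not called. All 8 osteoblast markers, which share Col1a1 with this list, were also higher with the knockdown at d5. They summed to 24510 to 26180 CPM against 17830 to 19220 CPM in Ctrl+FGF2, most of it Col1a1 (means 21837 and 16646 CPM). With FGF2 against Ctrl+vehicle at d5, 4 of the 8 were higher and 4 lower. The part of these markers in the members' changes was not tested.

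**Figure D4:**
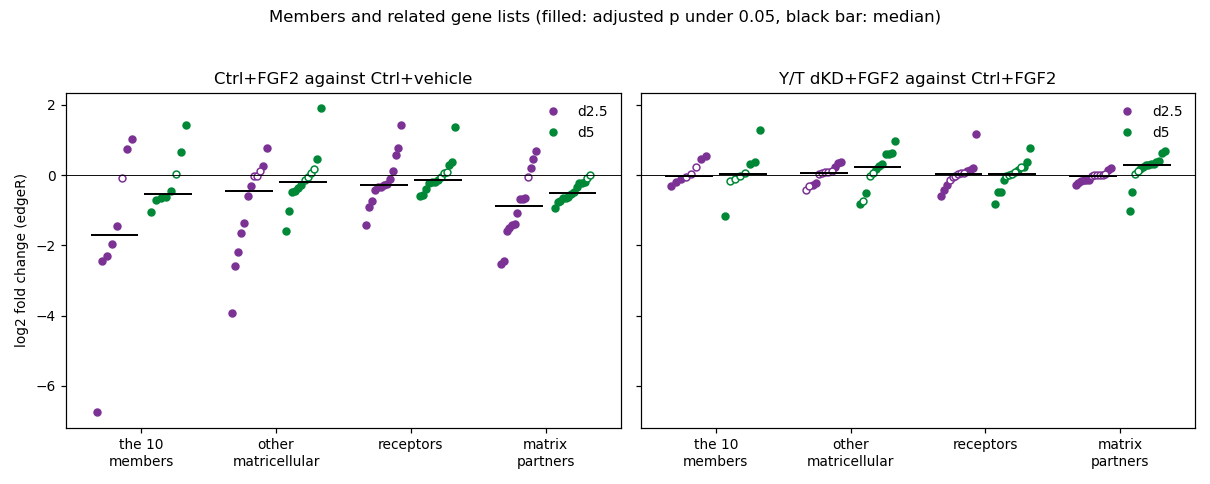
log2 fold change of the tested genes of 4 lists with FGF2 (left) and with the knockdown under FGF2 (right), at d2.5 and d5. Points are genes, filled for an adjusted p under 0.05, and black bars are medians. With FGF2 the members' median at d2.5 is -1.71, below those of the other lists, and with the knockdown at d5 the matrix partners' median is 0.28.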

How the data were processed

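The deposited files hold read counts per gene, 1 file for each of 18 libraries, in unstranded, first-strand and second-strand columns. The authors' processing notes name FastQC, STAR, Picard and featureCounts and the build mm10, with no versions, roles or annotation. The column holding 96.0% to 96.6% of stranded gene counts was used, and rows naming no gene, 27.0% to 34.4% of each library, were left out. Of 55335 identifiers, 55154 matched GENCODE M21, by which symbols and exon lengths were assigned.

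Counts were tested in R 4.3.3 with the quasi-likelihood test of edgeR 4.0.16 (TMM factors, filterByExpr, Benjamini-Hochberg adjustment over all genes tested, adjusted p under 0.05), on the 9 libraries of a day for the comparisons within days and on all 18 for differences between days. The standard error of a log2 fold change was its size over the square root of F, and 95% intervals used 1.96 standard errors. Such an interval can exclude 0 where the unadjusted p exceeds 0.05, as for Tnc with the knockdown at d5. CPM values use factors over all 18 libraries, so ratios of printed levels may differ slightly from fitted fold changes. Intervals and limits cover counting error or the spread of these libraries only. The script was tested on simulated data. Alternatives were RLE factors, DESeq2 1.42.0, no filter on low counts, the replicate number as a block, unstranded counts, other sets of libraries in the fit, and leaving out each library.

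All 10 members are reported whatever their values. Of each related list, the genes named are up to 3 with the largest change among those called. For each member, the gene with the most similar pattern was taken by Pearson's r in log2(CPM + 0.5) over the 18 libraries. The members, lists and motifs were chosen with earlier results of these data known. No 2 replicates agreed within sampling noise.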

Additional observations from a re-analysis of the deposited data

Results flagged for a closer look

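For 13 of the 16 effects tested on the members, the size differed between d2.5 and d5 by a contrast of the 2 effects in the edgeR fit of all 18 libraries. Each difference below is the log2 fold change at d5 minus that at d2.5. For FGF2 against vehicle it was 6.02 for Tnc, 2.94 for Thbs1, 1.80 for Tgfbi, 1.29 for Postn, 0.66 for Sparcl1, 0.39 for Sparc and -1.50 for Thbs2. Thbs1 and Thbs2 changed the sign of their response, Thbs1 from lower to higher and Thbs2 from higher to lower, while Tnc, Tgfbi, Postn and Sparc fell by less at d5 and Sparcl1 rose by more. For the knockdown under FGF2 it was 1.50 for Tgfbi, 0.37 for Sparc, 0.34 for Smoc2, -0.48 for Thbs2, -0.61 for Sparcl1 and -0.84 for Thbs1. The adjusted p-values of these differences lay between 3.22e-28 and 0.00279. Such differences were common in these data, at 60.9% of all genes for FGF2 and 20.9% for the knockdown, and each day is also a batch by the labels, which cannot be told apart from time.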

How the results depend on the processing

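The 22 counts of genes and members called stayed within 1.5 times their values under every alternative that was run. RLE factors, DESeq2, unstranded counts and a fit of only the 2 groups compared changed no member's call. With all 18 libraries in one fit, Postn was no longer called in the knockdown at d2.5 (log2 fold change -0.11, adjusted p = 0.112), and without the filter on low counts Sparcl1 and Tnc became called in the knockdown at d5 (log2 fold change -0.16 and -0.12, adjusted p = 0.0019 and 0.0344). Leaving out 1 library in turn reversed the sign of 3 effects, none of them called: the log2 fold change ranged from -0.020 to 0.11 for Smoc2 with FGF2 at d5, from -0.023 to 0.060 for Smoc2 with the knockdown at d2.5, and from -0.11 to 0.064 for Postn with the knockdown at d5. It also brought 4 uncalled effects past the threshold, 1 each for Smoc2, Sparcl1, Tnc and Postn, and removed no call.

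Groups of a day share replicate numbers, but not every same-numbered pair deviated together. Correlations of their deviations from the group means ran from -0.084 to 0.046 at d2.5 and from -0.069 to 0.158 at d5. Pairs with different numbers ran from -0.042 to 0.11 at d2.5 and from -0.157 to 0.060 at d5. At d5, 2 pairs of Ctrl+vehicle and Ctrl+FGF2 libraries (replicates 1 and 2) reached 0.135 and 0.158 and the third 0.0158. A library correlated best with its own number in 10 of 36 pairings, each with 3 libraries to choose from. With the replicate number as a block, 9180 genes were called for FGF2 at d2.5 against 9243 without it, 3226 against 3345 for the knockdown at d2.5, and 4354 against 4220 for the knockdown at d5, and no member's call changed. Spon1 and Smoc1 are limited by depth.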
